A study of Mus musculus with 24 samples.

Results

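Retnla, Chil3, Chil4 and Chil1 encode secreted proteins of the chitinase-like and resistin-like families, and all probe sets annotated to these symbols were taken, with Chi3l1, Chi3l3 and Chi3l4 read as older names of Chil1, Chil3 and Chil4. All 4 genes were found, of 18194 genes with a probe set of their own on the array. They had 5 of the 45101 probe sets: 1 each for Retnla, Chil3, Chil4 and Chil1, and 1 annotated to Chil3 and Chil4 together. All 5 passed the filter, which kept probe sets at or above the array median ratio on at least 3 arrays. It does not show that a gene was detected. The probe sets of Retnla, Chil3 and Chil4, with the shared one, reached that median only on arrays of cells given IL-4. The shared probe set cannot assign its signal to either gene, and cross-hybridisation between Chil3 and Chil4 was not tested for the other probe sets either.

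Bone marrow cells of 6 C57Bl/6 mice were cultured with 20 ng/ml M-CSF for 10 days to give macrophages, and RNA was measured on 24 Affymetrix mouse genome arrays. Mice 1, 2 and 3 were Pparg+/- LysCre, and mice 4, 5 and 6 were Pparg fl/- LysCre, in which the floxed allele of the nuclear receptor gene Pparg is cut by Cre under the lysozyme promoter of myeloid cells. Both genotypes carried Cre and 1 null Pparg allele, and no group was without them. Cells of each mouse were left without IL-4 or received 20 ng/ml IL-4, each with vehicle (DMSO and ethanol) or with the PPARγ agonist rosiglitazone (RSG) at 1 µM, so each of the 8 groups held 3 mice. The ages and sexes of the mice were not given in the sources used here.

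IL-4 acts on macrophages through the IL-4 receptor and the transcription factor STAT6, and the resulting state is called alternative activation. Retnla (also Fizz1 or RELMα), Chil3 (Ym1) and Chil4 (Ym2) are among its standard markers in mice. Retnla is a small cysteine-rich hormone-like protein related to resistin. Chil3 and Chil4 are lectins with the fold of a chitinase that do not cut chitin. Chil1 (BRP-39, the mouse counterpart of human YKL-40) belongs to the same chitinase-like family and is made by macrophages, neutrophils and epithelial cells.

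The bases just upstream of each of the 4 genes are shown first, as a description only. Each window holds 250 bases before the annotated start, from RefSeq on build GRCm38.p6, read 5′ to 3′ on the strand of the gene. Capitals mark a palindrome of TTC and GAA with a spacer of 4 bases (TTCNNNNGAA, the form STAT6 is known to favour) or of 3 bases (TTCNNNGAA, bound by STAT factors more widely). The Retnla window is chr16:48842359-48842608 (+), that of Chil3 chr3:106167565-106167814 (-), that of Chil4 chr3:106219480-106219729 (-) and that of Chil1 chr1:134181906-134182155 (+).
Retnla: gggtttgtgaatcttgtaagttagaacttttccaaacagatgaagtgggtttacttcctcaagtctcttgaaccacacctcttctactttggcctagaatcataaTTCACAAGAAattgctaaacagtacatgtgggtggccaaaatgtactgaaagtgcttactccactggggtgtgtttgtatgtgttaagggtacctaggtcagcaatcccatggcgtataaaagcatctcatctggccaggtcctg
Chil3: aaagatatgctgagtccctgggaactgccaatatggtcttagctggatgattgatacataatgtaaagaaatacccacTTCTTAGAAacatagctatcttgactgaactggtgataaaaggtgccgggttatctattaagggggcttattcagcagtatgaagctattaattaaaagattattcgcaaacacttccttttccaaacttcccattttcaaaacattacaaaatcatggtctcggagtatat
Chil4: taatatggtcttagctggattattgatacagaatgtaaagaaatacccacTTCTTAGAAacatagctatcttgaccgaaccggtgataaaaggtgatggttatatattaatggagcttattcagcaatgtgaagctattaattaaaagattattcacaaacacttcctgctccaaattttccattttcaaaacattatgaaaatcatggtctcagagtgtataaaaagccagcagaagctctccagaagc
Chil1: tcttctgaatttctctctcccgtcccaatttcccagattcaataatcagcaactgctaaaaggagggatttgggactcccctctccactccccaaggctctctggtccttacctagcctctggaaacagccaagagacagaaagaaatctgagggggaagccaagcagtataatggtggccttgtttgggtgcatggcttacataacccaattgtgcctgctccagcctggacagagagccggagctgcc

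The Retnla window held TTCACAAGAA from base -145 to base -136, counted from the start of the gene. The windows of Chil3 and Chil4 both held TTCTTAGAA, at -172 to -164 in Chil3 and at -200 to -192 in Chil4. No match to either palindrome was found on either strand of the Chil1 window. Among 32851 promoter windows of the same length, 5.85% held the form with a spacer of 4 and 7.02% the form with a spacer of 3. A TATAAA sequence lay at -30 to -25 in Retnla and at -31 to -26 in Chil4, and 12.4% of all windows held one. The Chil3 and Chil4 windows matched at 201 of 221 paired bases (91.0%). The Chil3 window ends within the bases that match the TATAAA of Chil4, so its lack of a TATAAA match depends on where the annotated start lies. The starts sit at different points of the matching stretch, which also shifts the stated place of TTCTTAGAA. These matches describe the letters only and show no binding, and a link to the direction of the IL-4 change was not tested.

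The values are expression ratios, in which 1 is about the median of a probe set over the arrays. They show how a probe set moved between arrays, and a ratio of 1 probe set cannot be set against that of another. The lowest ratio in the table was 0.01, which was treated as a limit and not as a measured level. The number of arrays, 3 in a group, limits the precision of each comparison. Array medians lay between 0.906 and 1.08. The array of mouse 4 with IL-4 and vehicle scattered most around its group, with a residual SD of 0.726 (log2) against 0.603 to 0.682 for the other arrays. In bulk RNA a smaller number of expressing cells and less RNA per cell cannot be told apart.

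The first question was how IL-4 changed the 4 genes. Retnla, Chil3 and Chil4 rose with IL-4 in both genotypes, with and without RSG, whereas Chil1 was lower. The probe set of Retnla went from the lowest ratio to between 1.99 and 3.14 on the IL-4 arrays, the Chil3 probe set rose between 14.2-fold and 20.0-fold, and that of Chil4 between 28.2-fold and 86.0-fold, sizes that for Chil4 depended on single mice. Chil1 fell 6.34-fold with vehicle and 5.57-fold with RSG in Pparg+/- cells. A change counted as called when limma, with Benjamini-Hochberg adjustment over 43349 probe sets, gave an adjusted p under 0.05 and the change was at least 1.5-fold. By that rule 5 of 5 were called in Pparg+/- cells with vehicle, where 13.4% of all probe sets were called, and 5 of 5 with RSG (11.6% of all). Of the Pparg fl/- comparisons, 4 of 5 were called with vehicle (14.8% of all) and 4 of 5 with RSG (13.3% of all). By direction, 7.91% of all probe sets were called higher and 5.47% lower in Pparg+/- cells with vehicle, and 6.57% and 5.07% with RSG. For Pparg fl/- cells these shares were 8.21% and 6.6% with vehicle and 7.3% and 6.03% with RSG.

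**Figure D1:**
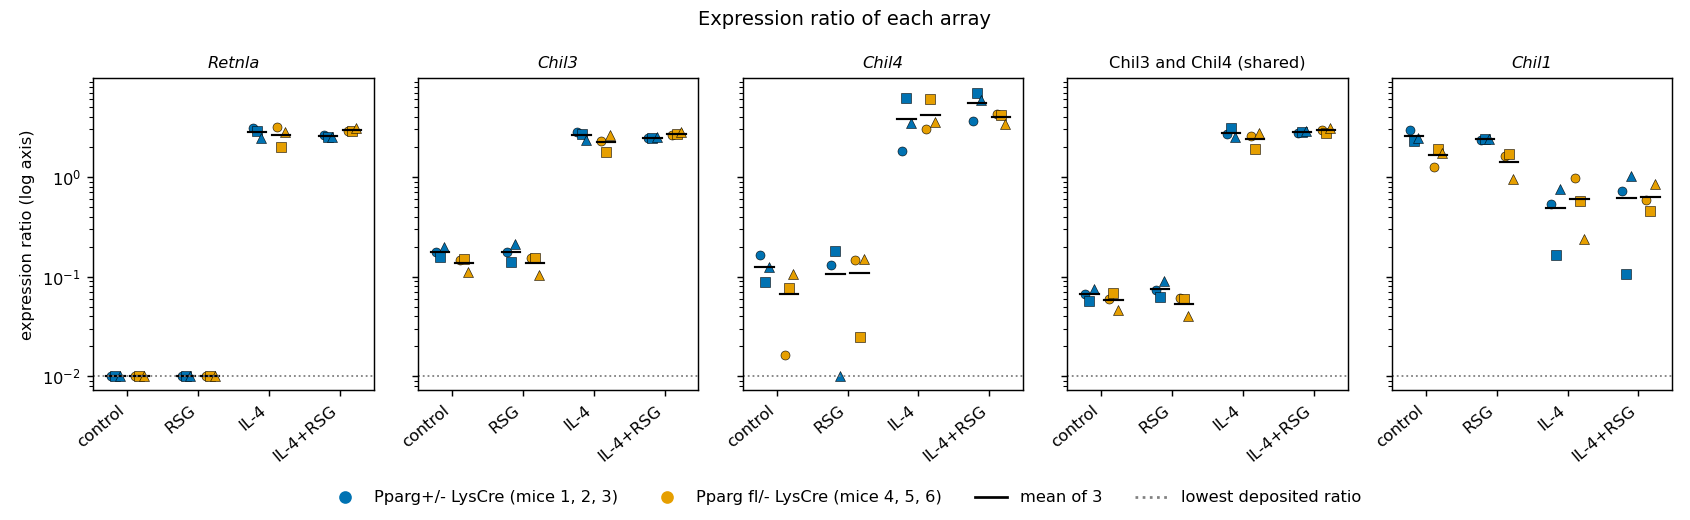
Expression ratio (log axis) of the 5 probe sets by array and culture, with the Pparg+/- LysCre mice in blue and the Pparg fl/- LysCre mice in orange; circles, squares and triangles are mice 1, 2 and 3 or mice 4, 5 and 6, a bar is the mean of 3 mice, and the dotted line is the lowest deposited ratio of 0.01. Retnla lies on that line on all 12 arrays without IL-4 and between 1.99 and 3.14 with it, and Chil1 is the only probe set with its higher ratios in the cultures without IL-4.

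Retnla was listed at 0.01 on all 12 arrays without IL-4, from both genotypes and with or without RSG. In Pparg+/- cells with IL-4 and vehicle, mice 1, 2 and 3 had ratios of 3.12, 2.90 and 2.45. In Pparg fl/- cells with IL-4 and vehicle, mice 4, 5 and 6 had ratios of 3.14, 1.99 and 2.86. No IL-4 array came near the limit, so the groups did not overlap. The same held, in that direction, for 18.1% to 22.3% of all probe sets over the 4 IL-4 comparisons. With IL-4 and RSG the ratios were 2.61, 2.54 and 2.52 in Pparg+/- cells. They were 2.92, 2.92 and 3.10 in Pparg fl/- cells. The highest of the 12 IL-4 arrays was only 1.57-fold above the lowest, that of mouse 5 with vehicle.

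Against the limit, Retnla was at least 281-fold higher with IL-4 in Pparg+/- cells with vehicle and at least 256-fold higher with RSG. It was at least 261-fold higher with vehicle and at least 298-fold higher with RSG in Pparg fl/- cells. Groups held at the limit have no spread, so the fitted SE of Retnla, 0.13 on the log2 scale, is too small and its p-value is not printed. With a floor of 0.05 in place of 0.01 the mean change within mice was 5.77 (log2) instead of 8.09, because the size of this change depends on where the limit is set.

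Chil3 had ratios of 0.176, 0.156 and 0.197 in Pparg+/- cells with vehicle and no IL-4. With IL-4 and vehicle they were 2.80, 2.73 and 2.33, a rise of 3.89 ± 0.40 (SE) on the log2 scale, 14.9-fold (limma, adjusted p = 1.7e-06). The IL-4 arrays lay above the others without overlap, as was so for 21.9% of all probe sets. In Pparg fl/- cells the ratios went from 0.147, 0.150 and 0.111 to 2.31, 1.79 and 2.64. That change was 4.04 ± 0.40, 16.5-fold (limma, adjusted p = 8.7e-07), without overlap, which was so for 18.1% of all probe sets. With RSG the change was 3.83 in Pparg+/- cells and 4.32 in Pparg fl/- cells, again without overlap (22.3% and 20.6% of all probe sets). Unlike Retnla, Chil3 was above the limit on every array without IL-4, between 0.104 and 0.213.

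Chil4 moved further and less evenly than Chil3. In Pparg+/- cells with vehicle the ratios went from 0.163, 0.0874 and 0.124 to 1.82, 6.19 and 3.52, a log2 rise of 4.82 ± 1.00 (limma, adjusted p = 0.0018). In Pparg fl/- cells with vehicle they went from 0.0164, 0.0768 and 0.107 to 3.00, 6.13 and 3.52, a log2 rise of 6.29 ± 1.00 (limma, adjusted p = 0.00013). The IL-4 arrays of mice 2 and 5 stood highest, and those of mice 1 and 4 lowest, in these 2 comparisons. With RSG the log2 rises were 6.43 in Pparg+/- and 5.59 in Pparg fl/- cells. Low values decided part of these sizes: without IL-4 the array of mouse 3 with RSG was at 0.0101, just above the limit, while the highest of the 12, that of mouse 2 with RSG, was at 0.181. Without mouse 2 the log2 rise in Pparg+/- cells with vehicle was 4.15, with an adjusted p of 0.053, and over all alternatives run that adjusted p ranged from 3.1e-06 to 0.053. Without mouse 1 that rise was 5.49. With RSG the rise in Pparg+/- cells was 5.05 without mouse 3 and 7.23 without mouse 1, and in Pparg fl/- cells it was 4.68 without mouse 5. The Pparg fl/- rise with vehicle was 5.68 without mouse 4 and 6.91 without mouse 6.

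The probe set shared by Chil3 and Chil4 lay between 0.0402 and 0.0892 on the 12 arrays without IL-4 and between 1.91 and 3.09 on the 12 with it. Its log2 rises were 5.39 and 5.26 in Pparg+/- cells and 5.37 and 5.80 in Pparg fl/- cells, with vehicle and RSG in that order, each ± 0.54 (SE). They lay between those of the Chil3 and Chil4 probe sets in Pparg+/- cells with RSG and in Pparg fl/- cells with vehicle, and above both in the other comparisons. Its spread was close to that of Chil3: with IL-4 the highest array was 1.62-fold above the lowest, against 1.57-fold for Chil3 and 3.86-fold for Chil4.

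The IL-4 and vehicle array of mouse 5 had the lowest of the 12 IL-4 ratios for Retnla (1.99), Chil3 (1.79) and the shared probe set (1.91). Its Chil4 ratio of 6.13 ranked 3 from the top of the 12. With RSG the same mouse had ratios of 2.92 for Retnla and 2.71 for Chil3, within the range of the other mice.

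Chil1 moved the other way. In Pparg+/- cells with vehicle its ratios went from 2.99, 2.28 and 2.48 in mice 1, 2 and 3 to 0.533, 0.163 and 0.760 with IL-4. The log2 change was -2.67 ± 0.67 (SE), 6.34-fold lower (limma, adjusted p = 0.0078). The groups did not overlap, as 12.5% of all probe sets did not in that direction. With RSG the ratios went from 2.36, 2.39 and 2.40 to 0.720, 0.106 and 1.02, a log2 change of -2.48 ± 0.67 (limma, adjusted p = 0.015), also without overlap (13.1% of all). Both IL-4 arrays of mouse 2 were the lowest of the 12, and without that mouse the change with RSG was -1.47, with an adjusted p of 0.088. Without mouse 3 it was -3.10 (adjusted p = 0.025). Without mouse 1 the adjusted p was 0.059 with vehicle and 0.059 with RSG. Over all alternatives run the adjusted p of Chil1 ranged from 0.003 to 0.098 with vehicle and from 0.0079 to 0.23 with RSG.

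In Pparg fl/- cells Chil1 was also lower with IL-4 but did not pass the test. With vehicle the ratios of mice 4, 5 and 6 were 1.27, 1.92 and 1.75 without IL-4 and 0.978, 0.579 and 0.239 with it. The log2 change was -1.66 (95% interval -3.06 to -0.26; limma, adjusted p = 0.094), with no overlap (12% of all probe sets). With RSG the ratios were 1.61, 1.70 and 0.951 without IL-4 and 0.583, 0.459 and 0.848 with it. That change was -1.17 (95% interval -2.57 to 0.23; limma, adjusted p = 0.27), again with no overlap (12.6% of all). Mouse 4 with vehicle and mouse 6 with RSG had the smallest differences. Without the IL-4 and vehicle array of mouse 4, the array with the largest scatter, the change with vehicle was -2.13 (adjusted p = 0.045), and without mouse 2, which enters only through the shared spread, its adjusted p was 0.010. Without mouse 6 the change was -1.05 (adjusted p = 0.48), without mouse 5 it was -1.62 (adjusted p = 0.30) and without mouse 4 it was -2.30 (adjusted p = 0.084). Over all alternatives run it ranged from 0.010 to 0.48.

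**Figure D2:**
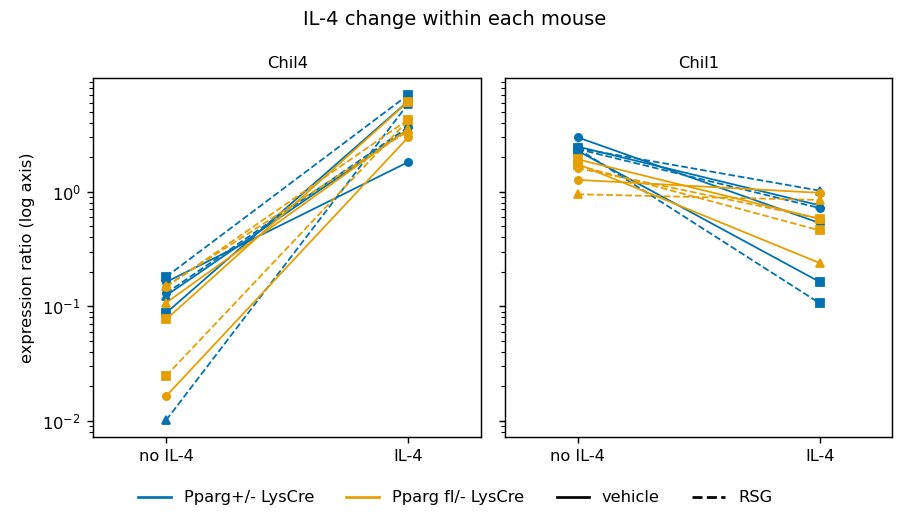
Expression ratio (log axis) of Chil4 and Chil1 without and with IL-4, joined within each mouse and treatment, with Pparg+/- LysCre mice in blue and Pparg fl/- LysCre mice in orange, solid with vehicle and dashed with RSG; circles, squares and triangles are mice 1, 2 and 3 or mice 4, 5 and 6. All 12 lines of Chil4 go up, by 11.2-fold to 580.2-fold, and all 12 of Chil1 go down, by 1.12-fold to 22.4-fold.

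Since each mouse gave all 4 cultures, the change was also taken within mice, a test added after the values were seen. Retnla, Chil3, Chil4 and the shared probe set were each higher with IL-4 in 12 of 12 within-mouse pairs, as were 11.5% of all probe sets. Chil1 was lower in 12 of 12 pairs, as were 7.54% of all. The mean log2 change over 6 mice, each averaged over vehicle and RSG, was -1.99 ± 1.12 (SD) for Chil1. It was -2.10, -4.15 and -1.47 in mice 1, 2 and 3 and -0.92, -1.81 and -1.52 in mice 4, 5 and 6. The mean changes were 4.02 ± 0.37 for Chil3, 5.78 ± 1.14 for Chil4, 5.46 ± 0.37 for the shared probe set and 8.09 ± 0.14 for Retnla, the last a lower bound. Each of the 5 had an exact two-sided sign-flip p of 0.031, adjusted over the 5 probe sets 0.031, which is the smallest that 6 mice can give. The groups of these probe sets did not overlap in any of the 4 IL-4 comparisons, so all mice had to agree in sign. The pair counts and this p therefore followed from values already seen and add no separate support, also not for Chil1 in Pparg fl/- cells.

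The order of the 8 group means showed the same split. For Retnla, Chil3, Chil4 and the shared probe set the 4 IL-4 groups came first, and every neighbouring pair among those 4 overlapped. The step from the last IL-4 group to the first group without IL-4 was 3.66 (log2) for Chil3, 4.82 for Chil4 and 5.01 for the shared probe set, beyond the SD of either group. Below that step all neighbouring pairs of these 3 probe sets overlapped, and the 4 Retnla groups were at the limit. For Chil1 the order was Pparg+/- with vehicle (2.58 ± 0.37, SD, n = 3), Pparg+/- with RSG (2.38 ± 0.02), Pparg fl/- with vehicle (1.65 ± 0.34) and Pparg fl/- with RSG (1.42 ± 0.41), all without IL-4, then the 4 IL-4 groups. Between Pparg+/- with RSG and Pparg fl/- with vehicle the log2 step was 0.56, and the arrays of these neighbours did not overlap. That pair was picked by the ranking, and the share of all probe sets without overlap was not counted for it. The 4 IL-4 means of Chil1 lay between 0.485 and 0.630 and overlapped.

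The next question was whether RSG changed these genes. No member probe set was called in any of the 4 RSG comparisons by limma. Over all probe sets 0.0115% were called in Pparg+/- cells without IL-4, 0.173% with IL-4, 0% in Pparg fl/- cells without IL-4 and 0.00923% with IL-4. At an unadjusted p under 0.05 the count of members was 0 in each comparison, by limma and by the methods' t-test alike. Retnla was at the limit with and without RSG in the cultures without IL-4, so no change could be measured there. With IL-4 the log2 change of Retnla with RSG was -0.14 (95% interval -0.41 to 0.13) in Pparg+/- cells and 0.19 (-0.08 to 0.46) in Pparg fl/- cells, with intervals that are too narrow for the reason given above.

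For Chil3 with IL-4 the change with RSG was -0.08 (-0.92 to 0.76) in Pparg+/- cells and 0.29 (-0.55 to 1.13) in Pparg fl/- cells. For Chil4 it was 0.65 (-1.44 to 2.74) and -0.03 (-2.12 to 2.06). In all 3 Pparg+/- mice the IL-4 ratio of Chil4 was higher with RSG than with vehicle, and in the Pparg fl/- mice it was higher in mouse 4 and lower in mice 5 and 6. For Chil1 with IL-4 the change with RSG was 0.08 (-1.32 to 1.48) and 0.25 (-1.15 to 1.65). The shared probe set was higher with RSG on all 3 IL-4 arrays of Pparg fl/- cells than on the 3 with vehicle, as 3.91% of all probe sets were, with a log2 difference of 0.30 (-0.82 to 1.43). These intervals leave room for changes of more than 1.5-fold in Chil3, Chil4 and Chil1, in either direction except for a fall of Chil3 in Pparg fl/- cells.

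**Figure D3:**
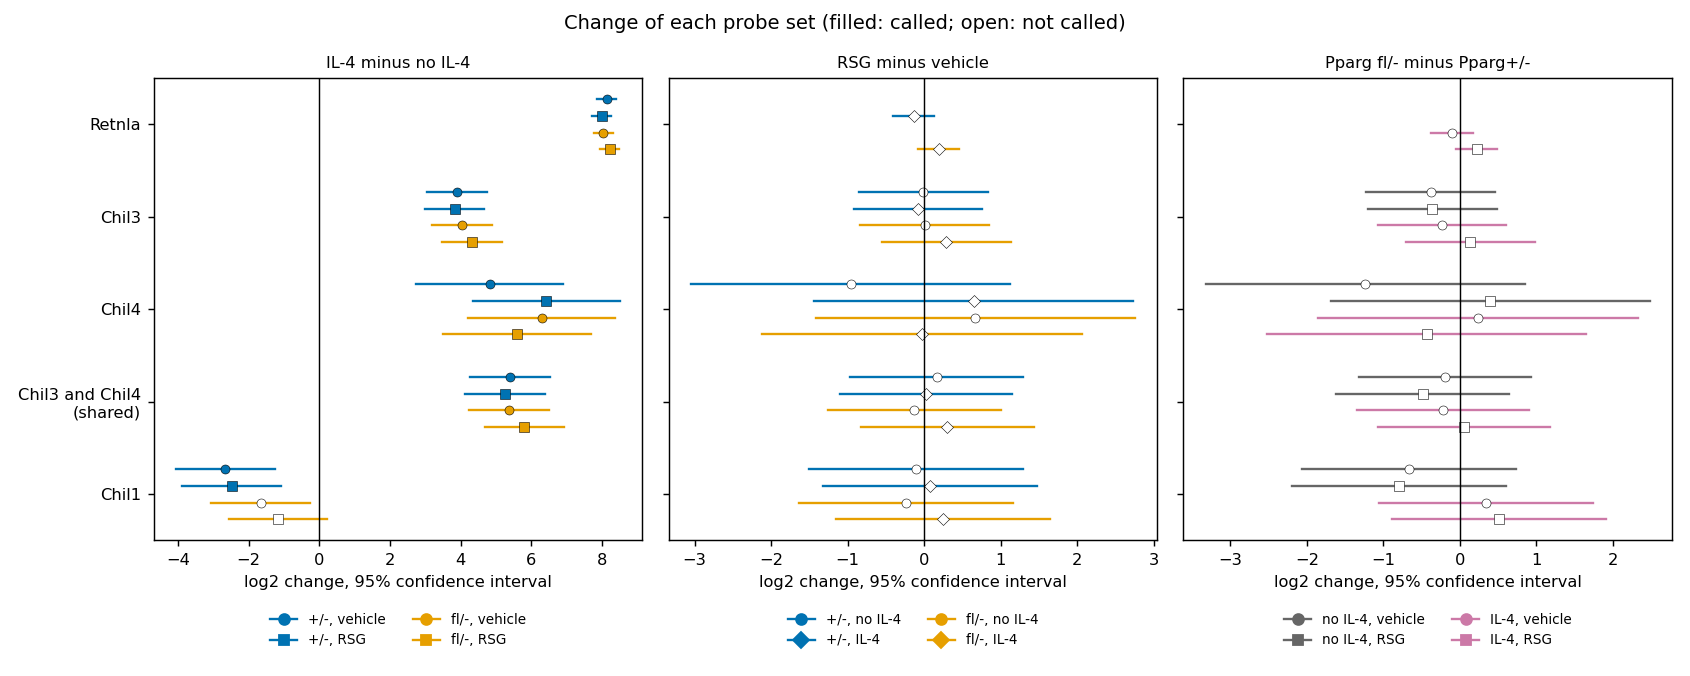
Log2 change of the 5 probe sets with IL-4, with RSG, and between genotypes, each point with its 95% confidence interval from limma, filled where called and open where not; Retnla has no value where both groups were at the limit, its IL-4 changes are lower bounds and its intervals are too narrow. All IL-4 changes of Retnla, Chil3, Chil4 and the shared probe set lie above 3.8, those of Chil1 lie below 0, and none of the RSG or genotype values is called.

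Pparg itself, the targeted gene, had group mean ratios between 0.456 and 0.876 without IL-4 and between 0.966 and 2.64 with it. Its mean was higher in Pparg fl/- than in Pparg+/- cells in all 4 cultures. Without IL-4 it was 0.790 against 0.549 with vehicle and 0.876 against 0.456 with RSG. With IL-4 it was 2.64 against 1.73 and 2.38 against 0.966. With RSG the genotypes did not overlap without or with IL-4, as was so in that direction for 11.8% and 17.1% of all probe sets. The place of the Pparg probes with respect to the deleted bases is not known here, so this probe set does not check the deletion. Fabp4, a target gene of PPARγ that was looked at after the other results, had 4 probe sets. With IL-4 its log2 changes with RSG were 0.88 to 1.48 in Pparg+/- and 0.31 to 1.05 in Pparg fl/- cells. Each of the 4 was smaller in Pparg fl/- cells, by -0.16 to -0.58, but none of these changes or differences was called (limma, adjusted p from 0.088 to 1). Without IL-4 the changes with RSG were 0.04 to 0.86 in Pparg+/- and -0.13 to 0.27 in Pparg fl/- cells, none called. There the probe set at 0.04 in Pparg+/- cells was at 0.27 in Pparg fl/- cells. The study's own PCR test of recombination was not analysed here, nor was its real-time PCR, in which the authors report that RSG no longer induced Fabp4. The genotypes below are those of the labels.

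Between genotypes no member was called by limma in any of the 4 cultures. Of all probe sets 0% were called without IL-4 and with vehicle, 0.00461% without IL-4 and with RSG, 0.00231% with IL-4 and vehicle and 0.501% with IL-4 and RSG. At an unadjusted p under 0.05 limma counted 0 members in each. The methods' t-test counted 1, Chil1, in each of the 2 cultures without IL-4 and 2, Chil3 and Retnla, with IL-4 and RSG, and none of these after adjustment.

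In the cultures without IL-4, the genotypes did not overlap for Chil1 with vehicle or with RSG, though no difference was called by limma. With vehicle it was lower in Pparg fl/- than in Pparg+/- cells (log2 difference -0.66, 95% interval -2.06 to 0.74; limma, adjusted p = 0.81). With RSG the difference was -0.79 (-2.19 to 0.61; limma, adjusted p = 0.74). In both cultures the 3 Pparg fl/- arrays lay below all 3 Pparg+/- arrays, as 5.04% of all probe sets did with vehicle and 4.58% with RSG. Over mouse means the difference was -0.73, with mice 1, 2 and 3 at 1.41, 1.22 and 1.29 and mice 4, 5 and 6 at 0.52, 0.85 and 0.37 on the log2 scale. The exact permutation p was 0.10, the smallest that 3 mice against 3 can give, and 0.40 when adjusted over the 4 probe sets compared. With IL-4 the difference was 0.34 (-1.05 to 1.74) with vehicle and 0.51 (-0.89 to 1.91) with RSG, and the genotypes overlapped.

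Chil3 without IL-4 was also lower on all 3 Pparg fl/- arrays with vehicle, as 5.04% of all probe sets were, with a difference of -0.38 (-1.22 to 0.46). The shared probe set was lower on all 3 with RSG, as 4.58% of all were, with a difference of -0.49 (-1.61 to 0.64). With IL-4 and RSG, Retnla and Chil3 were higher on all 3 Pparg fl/- arrays than on all 3 Pparg+/- arrays, as 17.1% of all probe sets were. The differences there were 0.22 (-0.05 to 0.49) for Retnla and 0.14 (-0.71 to 0.98) for Chil3. With IL-4 and vehicle they were -0.10 (-0.37 to 0.17) and -0.23 (-1.08 to 0.61), and the genotypes overlapped. For Chil4 the 4 genotype differences ran from -1.23 to 0.40, each with an interval wider than 4 on the log2 scale.

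The responses were then compared directly. The IL-4 response of Pparg fl/- cells less that of Pparg+/- cells was 1.01 ± 0.94 (SE) for Chil1 with vehicle and 1.31 ± 0.94 with RSG, toward a smaller fall in Pparg fl/- cells (limma, adjusted p = 1 for both). Its 95% intervals were -0.97 to 2.98 and -0.67 to 3.28. For Chil3 the differences were 0.15 ± 0.57 and 0.50 ± 0.57, and for Chil4 1.47 ± 1.41 and -0.83 ± 1.41. The RSG response with IL-4 differed between genotypes by 0.37 ± 0.57 for Chil3 and -0.67 ± 1.41 for Chil4 (limma, adjusted p = 1 for both). For Retnla that difference was 0.32, given without its SE, which is too small as above. In Pparg+/- cells the RSG response with IL-4 minus that without was 1.61 ± 1.41 for Chil4 and 0.19 ± 0.94 for Chil1. None of the 5 probe sets had an unadjusted p under 0.05 in any of these 4 tests, in which 0%, 0.00461%, 0.00231% and 0% of all probe sets were called. The same difference of IL-4 responses over mice was 1.15 for Chil1, with an exact permutation p of 0.30.

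Further genes of the chitinase and resistin families were listed too. Of 10 listed relatives, 7 were on the array with a symbol of their own and 6 were tested. With vehicle 1 of 6 was called higher with IL-4 in each genotype, beside 7.91% and 8.21% of all probe sets, and 0 were called lower. That gene was Ctbs, which encodes the lysosomal enzyme di-N-acetylchitobiase, with log2 changes of 0.60 in Pparg+/- (limma, adjusted p = 0.016) and 0.75 in Pparg fl/- cells (limma, adjusted p = 0.0033). With RSG 0 of 6 were called in Pparg+/- cells, and 1 of 6, the oviduct glycoprotein gene Ovgp1, in Pparg fl/- cells (0.63, limma, adjusted p = 0.03), beside 6.57% and 7.3% of all probe sets. The true chitinase genes Chia1 and Chit1, the chitinase-domain gene Chid1 and the resistin gene Retn were not called in any of the 4 comparisons. Chid1 missed only the 1.5-fold threshold in Pparg+/- cells, at 0.48 with vehicle and 0.49 with RSG (limma, adjusted p = 0.016 for both). Ctbs with RSG also missed only that threshold, at 0.535 in Pparg+/- (limma, adjusted p = 0.036) and 0.52 in Pparg fl/- cells (limma, adjusted p = 0.038). With vehicle the median of this list was 0.49 for Pparg+/- and 0.27 for Pparg fl/- cells, beside 0.10 and 0.12 over all probe sets.

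Chil3 and Chil4 are neighbours on chromosome 3, at 106147554 to 106167564 and 106201491 to 106219479 (GRCm38.p6), with 33926 bases between them. Chia1, the neighbour of Chil3 on the other side, had log2 changes with IL-4 of -0.60 and -0.18 with vehicle in the 2 genotypes and was not called. Dennd2d, Cept1 and Pifo, the other tested genes within 3 genes of either, were not called either. Chil5 and Chil6, further chitinase-like genes of this stretch, had no probe set of their own. Retnla, on chromosome 16 at 48842609 to 48844461, lies between its relatives Retnlb and Retnlg, neither of which was tested. Of its other neighbours the mitosis-linked phosphatase inhibitor gene Cip2a was lower with IL-4 in all 4 comparisons, by -2.83 and -3.16 with vehicle, and Morc1, Trat1 and Dzip3 were not called. Chil1, on chromosome 1 at 134182156 to 134190031, lies next to Chit1, and of its neighbours Btg2, an antiproliferative gene, was called higher with IL-4 in Pparg fl/- cells (1.11 with vehicle and 1.31 with RSG), and Chit1, Fmod and Myog were not called. Mybph and Adora1, on its other side, were not tested.

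Genes of IL-4 signalling and regulators known for these promoters were listed next, 17 in all, of which 16 were tested. With vehicle 5 were called higher and 3 lower with IL-4 in Pparg+/- cells, and 6 higher and 2 lower in Pparg fl/- cells. With RSG the counts were 5 higher and 1 lower, and 6 higher and 3 lower. Over these 4 comparisons 6.57% to 8.21% of all probe sets were called higher and 5.07% to 6.6% lower. The largest changes in Pparg+/- cells with vehicle were those of the transcription factor genes Irf4 (3.64) and Klf4 (3.23) and of Cish (3.58) and Socs1 (2.25), feedback inhibitors of cytokine signalling. Those 4 had changes of 3.73, 3.31, 4.28 and 3.20 in Pparg fl/- cells with vehicle. The 3 genes called lower in Pparg+/- cells, named after their values were seen, were the feedback inhibitor gene Socs3 (-1.96) and the receptor chain genes Il13ra1 (-1.09) and Il4ra (-0.64). Stat6 itself, also named afterwards, had a change of 0.39 (limma, adjusted p = 0.24). The list medians with vehicle were 0.39 and 0.29 in the 2 genotypes, beside 0.10 and 0.12 over all probe sets.

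Of 5 genes for binding partners reported for Chil1, Sdc1, which encodes the heparan sulphate proteoglycan syndecan-1, was called higher with IL-4 in all 4 comparisons. Its log2 changes were 1.21 and 0.99 with vehicle and 1.73 and 1.25 with RSG. In these comparisons 6.57% to 8.21% of all probe sets were called higher. Il13ra2, the decoy receptor chain for IL-13, was called lower in Pparg fl/- cells with vehicle only (-1.53; limma, adjusted p = 0.027). The difference of that response from the one in Pparg+/- cells was -1.33 ± 0.67 (SE) and was not called (limma, adjusted p = 1). Cd44, Lgals3 and Tmem219 were not called.

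Most other listed genes of alternative activation rose with IL-4. Of 12 listed, 11 were tested and 8 were called higher in each of the 4 comparisons, where 6.57% to 8.21% of all probe sets were called higher, with 0 called lower. The chemokine genes Ccl17 (-0.01) and Ccl22 (0.23), given here for Pparg+/- cells with vehicle, were not called in any of the 4. The mannose receptor gene Mrc1 was higher in all 4 but below the 1.5-fold threshold, so it was not called. Its log2 changes were 0.34 to 0.58 (limma, adjusted p from 0.00053 to 0.026). Listed genes with the largest change in Pparg+/- cells with vehicle were the arginase gene Arg1 (8.14), the ribonuclease gene Rnase2a (8.03), the lectin gene Mgl2 (7.84) and the E-cadherin gene Cdh1 (6.98). Arg1 and Rnase2a were at the limit on all 12 arrays without IL-4, so those values are lower bounds. With vehicle the median of the list was 3.08 in the Pparg+/- and 3.44 in the Pparg fl/- comparison.

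Genes most like each member were found from the 8 group means on the log2 scale, centred within each probe set, among 17733 genes, by the root mean square difference. This is a description over groups that share mice, without a test. Retnla was closest to Arg1 (0.04), Rnase2a (0.06), Mgl2 (0.35) and the cytokine receptor gene Il31ra (0.36), and the first 2 share its limit in all groups without IL-4. Chil3 was closest to the coagulation factor genes F10 (0.15) and F7 (0.16), then Hebp2 and Hgd (0.22 each). Chil4 was closest to Pdcd1lg2, the gene of the checkpoint ligand PD-L2 (0.40), to the scavenger receptor gene Olr1 (0.42), to the carbonic anhydrase gene Car6 (0.48) and to Tmem26 (0.52). The shared probe set was closest to Olr1 (0.28), Pdcd1lg2 (0.32), Car6 (0.33) and Car2 (0.33). Chil1 was closest to the unnamed gene 9630013D21Rik (0.17), to the ficolin gene Fcna (0.26), to the apolipoprotein gene Apoe (0.28) and to the receptor gene Gpr171 (0.28). Fcna had group mean ratios between 1.71 and 2.46 without IL-4 and between 0.508 and 0.557 with it.

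Markers of other cells that marrow cultures can hold moved with IL-4 too. Ratios cannot show how strongly the macrophage markers Csf1r, Cd68 and Adgre1 were expressed, and none of these was called with IL-4. Of 9 macrophage markers tested, 1 was called higher and 4 lower with vehicle in each genotype. Among all probe sets 7.91% and 8.21% were called higher there, and 5.47% and 6.6% lower. In Pparg+/- cells with vehicle those lower were Cx3cr1 (-3.28), Fcgr1 (-2.02), Cd14 (-1.11) and Mertk (-0.87), and Itgam (1.11) was higher. The median of the 9 was -0.76 there, beside 0.10 over all probe sets. Of 12 neutrophil markers, 7 were called lower with IL-4 in Pparg+/- cells with vehicle, 9 in Pparg fl/- cells with vehicle, 8 and 9 with RSG, and 0 higher in any. The shares of all probe sets called lower were 5.47% and 6.6% with vehicle and 5.07% and 6.03% with RSG. Not called in Pparg+/- cells with vehicle were Ctsg (-2.09), Cxcr2 (-0.93), Mpo (-0.69), Elane (-0.38) and Mmp8 (0.25). The largest falls in Pparg+/- cells with vehicle were those of S100a9 (-8.28), Ngp (-6.72), Lcn2 (-6.11) and Camp (-5.17). The summed ratio of all 12 markers was 17.0 to 36.9 on the 12 arrays without IL-4 and 2.80 to 5.98 on the 12 with it. Such sums, here and below, are weighted by the probe sets that move most and do not measure how many of these cells were present. S100a9 was at the limit on 8 IL-4 arrays, 2 of them in Pparg+/- cells with vehicle, so its fall there is a lower bound. Lcn2 was at the limit on 5 IL-4 arrays, none of them in that comparison. Of 7 stromal markers 3 were called lower in each of the 4 comparisons (5.07% to 6.6% of all), the collagen genes Col1a1, Col1a2 and Col3a1. The other stromal markers were not called, with Lum at 0.42, Pdgfrb at 0.27, Sparc at -0.07 and Dcn at -0.28 in Pparg+/- cells with vehicle. The summed ratio of the 7 went from 9.52 to 39.0 without IL-4 to 3.40 to 7.05 with it.

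Chil1, the member that fell, moved in the direction of the neutrophil, stromal and macrophage markers called lower. The part of these cells in its fall was not tested. Without IL-4 the neutrophil sum was 24.8 to 36.9 on the 6 Pparg+/- arrays and 17.0 to 28.6 on the 6 Pparg fl/- arrays. That is the direction of the Chil1 difference between genotypes, with overlap, and not all markers went that way. Mpo (1.02), Prtn3 (0.45) and Mmp8 (0.03) were higher in Pparg fl/- cells with vehicle, and Cxcr2 (1.15), Ctsg (0.61) and Mpo (0.13) with RSG. The stromal sum went the other way with vehicle, 11.0 to 11.7 in Pparg+/- and 14.1 to 39.0 in Pparg fl/- cells, and with RSG it was 13.0 to 14.0 and 9.52 to 26.6. The part of either list in that difference was not tested. Retnla, Chil3 and Chil4 moved against the markers called lower. Dendritic cell markers rose in part: 2 of 6 were called higher with IL-4 in Pparg+/- cells, with vehicle and with RSG, and 3 of 6 and 2 of 6 in Pparg fl/- cells. Over these comparisons 6.57% to 8.21% of all probe sets were called higher. Zbtb46 and Itgax were called in each comparison. In Pparg+/- cells with vehicle the others were not called, with Flt3 at 1.79, Cd83 at -0.48, Ccr7 at -0.87 and Xcr1 at -1.38. The summed ratio of the 6 was 3.42 to 7.68 without IL-4 and 6.42 to 15.6 with it. The part of dendritic cells in the rise of Retnla, Chil3 and Chil4 was not tested. Eosinophil markers, 5 tested, had at most 1 called, lower, in each comparison. Mast cell and basophil markers, 7 tested, had at most 2 called higher and at most 1 called lower. Among all probe sets 6.57% to 8.21% were called higher and 5.07% to 6.6% lower.

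**Figure D4:**
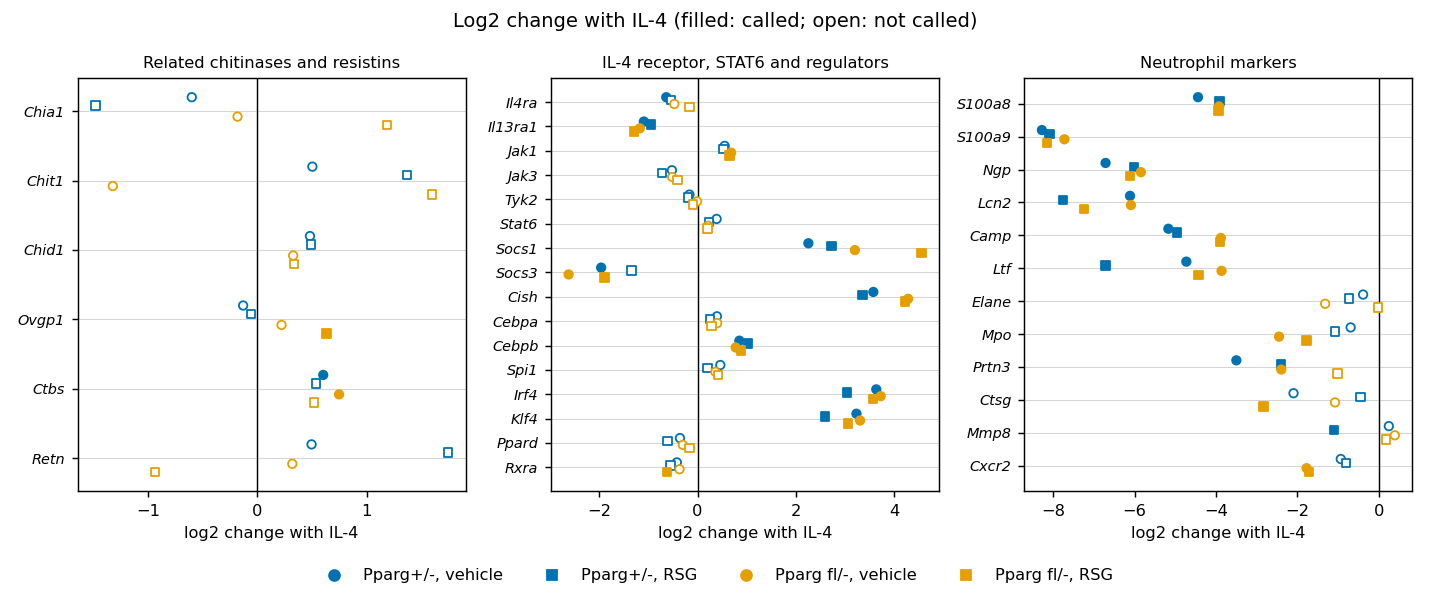
Log2 change with IL-4 of related chitinase and resistin genes, of genes of IL-4 signalling and regulators, and of neutrophil markers, blue for Pparg+/- and orange for Pparg fl/- cells, circles with vehicle and squares with RSG, filled where called. The relatives lie on both sides of 0 with few called, Irf4, Klf4, Cish and Socs1 are called higher in all 4 comparisons, and S100a9 and Ngp are called lower in all 4.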

How the data were processed

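RNA of bone marrow-derived macrophages was measured on 24 Affymetrix mouse genome arrays. The authors deposited linear ratios: GC-RMA signals from GeneSpring 7.3 were scaled to each chip's 50th percentile and each probe set's median. The submitters' processing notes also name GCOS without a version. The division by vehicle controls named in the methods was not seen in the values. Groups came from the labels. Probe sets at or above the array median on at least 3 arrays were kept. Control probe sets and 1688 others were left out. Log2 ratios of all 24 arrays were fitted as 8 group means with limma 3.58.1 in R 4.3.3 (eBayes with trend, two-sided, Benjamini-Hochberg over 43349 probe sets), and 16 comparisons were made. The fit was tested on simulated data. Labels give each mouse all 4 cultures, so mouse pairs the samples. The median correlation of deviations between cultures of 1 mouse was 0.0038 to 0.031, and that of the mouse block was 0.0375.

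Members and lists were chosen with earlier results of these data known. All member probe sets, the 4 called list members with the largest change, the 4 most similar genes and 3 neighbours on each side were named.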

Additional observations from a re-analysis of the deposited data

How the results depend on the processing

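No member was called in the RSG comparisons, the genotype comparisons or the differences of responses under any alternative run. The 4 IL-4 counts stayed within 1.5 times their value, except in Pparg+/- cells with RSG under the methods' t-test. It called 3 of 5 there (Chil1 -2.48, adjusted p = 0.23, and Chil4 6.43, adjusted p = 0.061). A fall from 5 to 4 lies within that band. It occurred in Pparg+/- cells with vehicle under the methods' t-test and without mouse 1 or mouse 2. Mouse as a random replicate block changed no call, with Chil1 in Pparg+/- cells with vehicle at -2.67 and an adjusted p of 0.0061. Chil1 lost its call in Pparg+/- cells with vehicle under the methods' t-test (-2.67, adjusted p = 0.098), and with RSG when only the groups compared were fitted (adjusted p = 0.13). The rises of Retnla, Chil3 and the shared probe set kept their direction and call under all of the alternatives run, including centred array medians, quantile normalization, a floor of 0.05, log2(ratio + 0.1), no filter and the omission of each mouse. The cause of the lost calls was not tested.

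Values that changed sign were not called, near 0 or of Chil4 or Chil1. For RSG without IL-4, Chil3 was 0.097 after quantile normalization in Pparg+/- cells, and -0.013 with centred medians and -0.085 after quantile normalization in Pparg fl/- cells. For RSG with IL-4 in Pparg fl/- cells, Chil4 was 0.14 after quantile normalization. Between genotypes, Chil4 without IL-4 and with RSG was -0.030 with a floor of 0.05, Chil1 with IL-4 and vehicle was -0.12 without the array of mouse 4, and the shared probe set with IL-4 and RSG was -0.0045 with centred medians and -0.078 after quantile normalization. The genotype difference of the Chil3 IL-4 response with vehicle was -0.21 after quantile normalization.
Leaving out each mouse in turn gave these lowest and highest log2 values where a sign changed. For RSG in Pparg+/- cells without IL-4, Chil3 ran from -0.074 to 0.060, Chil4 from -1.97 to 0.36 and Chil1 from -0.19 to 0.011. With IL-4 the shared probe set ran from -0.057 to 0.10 and Chil1 from -0.095 to 0.43. For RSG in Pparg fl/- cells without IL-4, Chil3 ran from -0.030 to 0.063, Chil4 from -0.58 to 1.82 and Chil1 from -0.53 to 0.083. With IL-4 Chil4 ran from -0.29 to 0.23 and Chil1 from -0.54 to 0.75. Between genotypes, Chil4 ran from -0.91 to 1.26 without IL-4 and with RSG. With IL-4 and vehicle Retnla ran from -0.24 to 0.092, Chil4 from -0.22 to 0.67 and Chil1 from -0.31 to 0.90, and with IL-4 and RSG Chil1 ran from -0.49 to 1.14. For the genotype difference of the IL-4 response with vehicle, Retnla ran from -0.24 to 0.092, Chil3 from -0.12 to 0.38 and the shared probe set from -0.28 to 0.26. With RSG Chil4 ran from -1.75 to 0.54. For Chil1 the RSG response with minus without IL-4 ran from -0.11 to 0.62 and its genotype difference with IL-4 from -0.62 to 0.67.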
